A study of Mus musculus with 6 samples.

Results

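Mast cells of the embryonic mouse flank skin were described here in single-cell RNA libraries of whole skin at embryonic days 13.5 (E13.5) and 14.5 (E14.5). Cells were kept if they had at least 500 detected genes and at most 10% mitochondrial transcripts. A kept cell was counted as a mast cell if it held at least 10 transcript counts (unique molecular identifiers, UMIs) of Cpa3, at least 1 of Srgn, at most 5 of the 3 C1q genes together, at most 10 of Col1a1, Col1a2 and Col3a1 together and at most 3 of Krt5 and Krt14 together. This rule found 539 mast cells among 40653 kept cells. Because their own transcripts chose them, their levels against other cells are given as a description, with no test.

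The series asked what the loss of beta-catenin in dermal cells changes in skin of these stages. The E14.5 LOF and E13.5 LOF libraries (1 each) came from PDGFRalphaCreER(Lo);beta-catfl/fl;mTmG embryos on a CD1 background. A Pdgfra promoter drives the tamoxifen-dependent Cre in these embryos, beta-catenin carries loxP sites, and a dual-colour reporter switches from membrane tdTomato to membrane GFP in recombined cells. Tamoxifen was given once by mouth to the mother at E11.5. The E14.5 control and E13.5 control libraries (2 each, replicates 1 and 2) are labelled WT, CD1, and the labels do not say whether their mothers received tamoxifen. Each library pooled 3 to 4 embryos of 1 stage and genotype, after sorting to leave out dead cells, and was made with droplet capture of transcript 3′ ends. All p-values below therefore measure the spread between pooled libraries, which may be technical.

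Mast cells are tissue-resident blood cells. They store histamine and proteases on the proteoglycan serglycin inside granules, and they release them when antigen binds IgE on the high-affinity Fc receptor or when other receptors are engaged. The receptor tyrosine kinase Kit and its ligand, stem cell factor, maintain them, and the transcription factors Gata2 and Mitf drive their genes. In skin the connective tissue type predominates, which is known for chymase, tryptase and carboxypeptidase A3, and the first skin mast cells arise before birth from yolk sac and other embryonic progenitors.

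The promoters of the 2 most abundant protease genes are shown because Cpa3 chose the cells and Cma1 was the protease gene that rose with the stage. The sequences are from RefSeq (GRCm38.p6), 5′ to 3′ on the strand of the gene, and run from 250 bases before to 50 bases after the start. Capitals mark GATAA, the core letters that GATA factors bind, or TTATC where it lies on the opposite strand. The Cpa3 window is chr3:20242132-20242431 on the minus strand and holds GATAA 1 time. The Cma1 window is chr14:55944626-55944925 on the minus strand and holds TTATC 1 time. 
Cpa3: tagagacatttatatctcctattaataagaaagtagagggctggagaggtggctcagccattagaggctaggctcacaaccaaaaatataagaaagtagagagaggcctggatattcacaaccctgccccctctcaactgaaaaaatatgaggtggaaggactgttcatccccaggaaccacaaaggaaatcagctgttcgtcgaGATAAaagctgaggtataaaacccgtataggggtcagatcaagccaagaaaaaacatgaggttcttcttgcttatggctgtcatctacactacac
Cma1: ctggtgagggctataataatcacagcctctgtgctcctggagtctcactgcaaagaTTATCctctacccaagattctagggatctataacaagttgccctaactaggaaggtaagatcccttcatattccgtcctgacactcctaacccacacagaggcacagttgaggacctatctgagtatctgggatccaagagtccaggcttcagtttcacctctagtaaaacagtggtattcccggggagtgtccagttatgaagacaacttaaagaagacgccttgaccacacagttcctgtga
GATAA on either strand was present in 7682 of 27025 RefSeq promoters of this length (28.4%). Of the 20 genes that stood highest in mast cells over all other kept cells, 15 had a promoter in the table, and 9 of these held it (60%). A match is only a description of these letters.

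Each library held 53461986 to 86446575 UMIs in all. The median per mast cell was 7743 and 16294 UMIs in the E14.5 and E13.5 LOF, 11396 and 13329 in the E14.5 control and 17313.5 and 13649.5 in the E13.5 control libraries. The mast cells alone held 1793062 UMIs in the E14.5 LOF library and 940733 in the E13.5 LOF library, 1131339 and 1522759 in the E14.5 controls, and 606770 and 579399 in the E13.5 controls. Levels below are in CPM, the UMIs of a gene per 1000000 UMIs summed over the mast cells of a library. A transcript is read once, at its 3′ end, so CPM was not divided by gene length. A count of 0 allows up to 1.67 CPM in the E14.5 LOF, 3.19 in the E13.5 LOF, 2.65 and 1.97 in the E14.5 control and 4.94 and 5.18 in the E13.5 control mast cells (3 counts, counting error only). Where 2 values are given for a control stage, replicate 1 stands before replicate 2. Of 40636 distinct cell barcodes 951 occurred in 2 or more libraries, but no barcode was a mast cell in more than 1.

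Several libraries stood apart from their labels or from each other. Transcripts of the reporter eGFP in fibroblasts reached 312 CPM in the E14.5 LOF and 349.8 in the E13.5 LOF library. They also reached 88.0 and 104 CPM in the E14.5 and E13.5 replicate 2 controls, both labelled WT, against 5.39 and 3.11 in the E14.5 and E13.5 replicate 1 controls. In mast cells eGFP was 1.73 to 13.8 CPM across the 6 libraries. Pdgfra, whose promoter drives the Cre, was 3.35 and 5.32 CPM in the E14.5 and E13.5 LOF mast cells, against 242 and 136 in the fibroblasts of the same libraries. Ctnnb1, which encodes beta-catenin, was 59.7 and 74.4 CPM in the E14.5 and E13.5 LOF mast cells, 71.6 and 84.7 in the E14.5 and 93.9 and 55.2 in the E13.5 control mast cells. In fibroblasts it was 196 and 246 CPM in the E14.5 and E13.5 LOF, 179 and 170.3 in the E14.5 control and 194 and 173 in the E13.5 control libraries. Reads from transcript 3′ ends do not check a deletion upstream of them. The histone gene Hist1h1b and the locus Gm42418 were high in every class of cells of E14.5 control replicate 1 and the E14.5 LOF library, while Gstp1 and Pgk1 were high in every class of both replicate 2 controls. In mast cells Hist1h1b was 663 and 1122 CPM in that first pair and at most 54.4 CPM in the other 4 libraries. The labels name no batch for these pairs, so values within them are given beside the results.

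Summed over the cells of a library, the markers of mast cells were present, with 2 exceptions. Single cells differed. After every cell was thinned to 3000 UMIs (described below), 31.2% and 47.7% of the E13.5 control mast cells held no Cma1 UMI. In the E14.5 controls it was 10.9% and 13.8%. Those cells held little of the tryptase Tpsb2 and more Ifitm1, a gene of the basophil list. The summed level of the 15 markers was 25872 CPM in the E14.5 LOF, 15209 in the E13.5 LOF, 23019 and 21291 in the E14.5 control and 13903 and 11295 in the E13.5 control mast cells, and 14 of the 15 had a UMI in every library. Cpa3, carboxypeptidase A3, was 9244 and 4775 CPM in the E14.5 and E13.5 LOF, 7542 and 6030.5 CPM in the E14.5 control and 5750.1 and 3398 CPM in the E13.5 control mast cells, against 0.972 to 7.16 CPM in fibroblasts. The limits set this order, since mast cells needed at least 10 Cpa3 UMIs and fibroblasts were allowed at most 1. Cpa3 and Srgn chose the mast cells, so the rule also shaped their ratios below and the sum of the markers. Averaged over libraries on the log2 scale, the level over all other kept cells was 432-fold higher for Cpa3, 418-fold for the chymase Cma1, 341-fold for the tryptase Tpsb2, 243-fold for Hdc, which makes histamine, 192-fold for Srgn, the serglycin core, and 172-fold for Gata2. Prss34, a tryptase-like protease, was 256-fold higher, the adenosine receptor gene Adora3 was 88.3-fold higher, the IL-33 receptor gene Il1rl1 85.4-fold and the cytokine gene Il13 83.3-fold. The first exception was Fcer1a, the IgE-binding chain of the Fc receptor, at 0 to 3.35 CPM and carried by 1 to 4 mast cells per library where it was seen at all. Its partner chains were present, with Ms4a2 (beta chain) at 67.3 to 199.8 CPM and Fcer1g (gamma chain) at 648 to 757 CPM. The second was Mcpt4, a chymase of mature connective tissue mast cells, at 23.4 and 2.13 CPM in the E14.5 and E13.5 LOF, 5.30 and 2.63 CPM in the E14.5 control and 92.3 and 12.1 CPM in the E13.5 control mast cells; in E13.5 control replicate 1 all of it came from 1 cell. The receptor genes Mrgprb2, Tlr4 and Il18r1 were at most 5.91 CPM in any library.

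**Figure D1:**
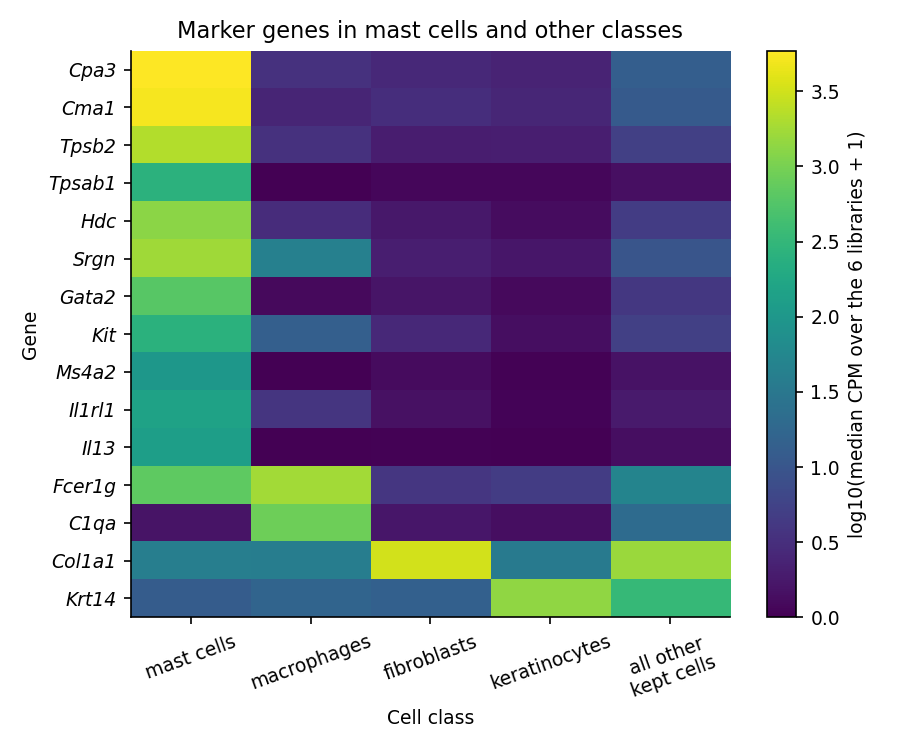
Heat map of marker genes (rows) in mast cells, macrophages, fibroblasts, keratinocytes and all other kept cells (columns); colour is log10 of the median CPM over the 6 libraries plus 1. Cpa3, Cma1, Tpsb2, Hdc and Gata2 stood highest in the mast cell column, while Fcer1g was also high in macrophages.

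Markers of other cell types were also found in the mast cells. The 10 basophil genes, 3 of which are also in the mast cell marker list, summed to 1877 CPM in the E14.5 LOF and 1432 in the E13.5 LOF, 1525 and 1206 in the E14.5 control and 2070.0 and 1798 in the E13.5 control mast cells. The highest of them was Ifitm1 in E13.5 control replicate 2 and Prss34 in the other 5 libraries. The 9 measured lymphoid genes summed to 594 CPM in the E14.5 LOF and 794 in the E13.5 LOF, 647 and 709 in the E14.5 control and 789 and 682 in the E13.5 control mast cells. Of this sum 421 to 642 CPM was Id2, a regulator of many blood cell types, while Cd3e, Cd79a and Klrb1c had no UMI in any library. Cd3g and Nkg7 of the same list were found in every library, and their levels are given below. Macrophages of the same libraries, chosen by C1q transcripts, numbered 661. The 15 macrophage and monocyte markers summed to 207 CPM in the E14.5 LOF and 95.7 in the E13.5 LOF, 154 and 67.0 in the E14.5 control and 409 and 117 in the E13.5 control mast cells. With the C1q genes, Cx3cr1 and Pf4 left out, 1 mast cell held 158 of 164 UMIs of these markers (96.3%) in E13.5 control replicate 1. Likewise 1 mast cell held 66 of 72 (91.7%) in the E14.5 LOF library. The 7 fibroblast markers summed to 132 CPM in the E14.5 LOF and 188 in the E13.5 LOF, 162 and 317 in the E14.5 control and 155 and 129 in the E13.5 control mast cells. Haemoglobin and erythroid genes summed to 29.0 CPM in the E14.5 LOF, 15469 in the E13.5 LOF, 52.2 and 2630.1 in the E14.5 control and 51.1 and 314 in the E13.5 control mast cells. In the E13.5 LOF library 85.3% and in E14.5 control replicate 2 81.2% of the Hbb-bs UMIs lay in 1 mast cell. As doublets, the cells of highest doublet score were marked, as many as an assumed rate of 0.8% per 1000 kept cells gave. The share over all kept cells was thus set in advance. Marked were 10 and 2 mast cells of the E14.5 and E13.5 LOF, 8 and 11 of the E14.5 control and 0 and 1 of the E13.5 control libraries. In the E14.5 controls this was 8.70% and 9.73% of the mast cells, against 5.01% and 4.68% of all kept cells. For the E13.5 controls it was 0% and 2.27%, against 5.58% and 4.83%. The E14.5 and E13.5 LOF libraries had 4.98% and 3.51%, against 7.14% and 5.30%.

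The share of mast cells among kept cells was higher in each E14.5 library than in each E13.5 library. They made up 201 of 8922 cells (2.25%) in the E14.5 LOF library and 57 of 6620 (0.861%) in the E13.5 LOF library. In the E14.5 controls they were 92 of 6263 cells (1.47%) and 113 of 5850 (1.93%), against 32 of 6970 (0.459%) and 44 of 6028 (0.730%) in the E13.5 controls. The 2 stages did not overlap. The mean was 1.70% ± 0.327 in E14.5 controls and 0.595% ± 0.191 in E13.5 controls (SD, n = 2 each), a ratio of 2.86. A two-sided exact permutation test gave p = 0.333, the smallest that 2 libraries against 2 can give. The value was above both controls of its stage in each LOF library, 1 library per stage, so no test was made. Dissection and sorting also set such shares. Just inside the limit of 10 Cpa3 UMIs stood 33 mast cells with 10 to 14 UMIs, and 15 cells with 5 to 9 and 8 cells with 2 to 4 that met all other limits stood outside it.

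**Figure D2:**
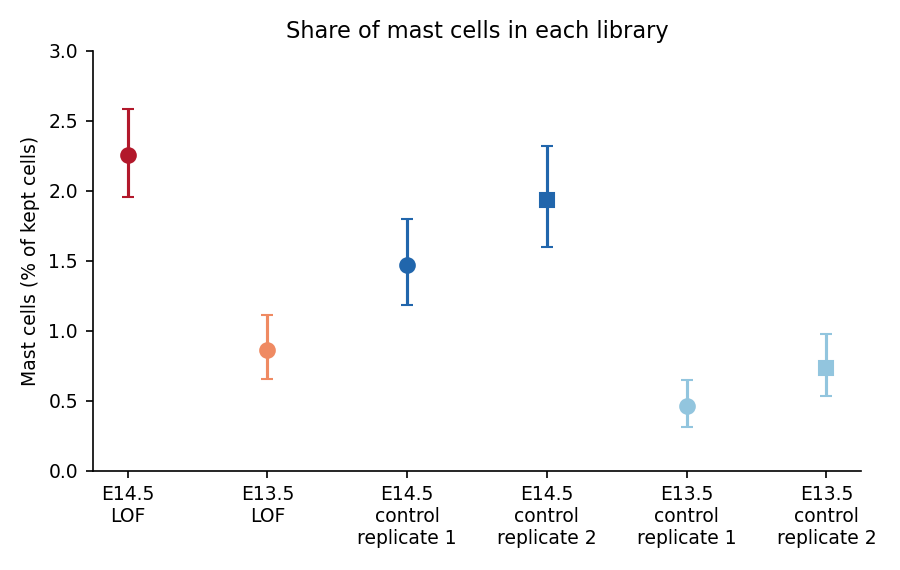
Share of mast cells among kept cells, in percent, in each of the 6 libraries, with 95% Clopper-Pearson intervals that cover counting error only. Both E14.5 control libraries (1.47% and 1.93%) stood above both E13.5 controls (0.459% and 0.730%), and the E14.5 LOF library (2.25%) above the E13.5 LOF library (0.861%).

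Between the control stages, the mast cells of E14.5 held more transcripts of the chymase Cma1, the protease inhibitor Serpinb1a and the cytokine Osm, and fewer of the tryptase Tpsab1 and of the leukocyte surface genes Cd3g and Cd52. Summed UMIs were tested with edgeR's quasi-likelihood test and Benjamini-Hochberg adjustment over 6919 genes. Of these 16 passed an adjusted p of 0.05 (0.231%), 8 higher (0.116%) and 8 lower (0.116%) at E14.5, and 473 had an unadjusted p under 0.05; DESeq2 called 19. The 2 LOF libraries, which took no part in that test, moved in the same direction for 12 of the 16 genes (75%), against 68.3% of all genes tested. By direction these were 7 of the 8 higher (87.5%) and 5 of the 8 lower genes (62.5%). The E14.5 LOF library shared some library-wide levels with E14.5 control replicate 1, as described above.

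Among the granule proteases, 1 of the 10 genes tested rose and 1 fell, of 16 listed. Cma1, the chymase of mouse skin mast cells (also named mast cell protease 5), was 7434 and 6559 CPM in the E14.5 control mast cells, against 2856 and 1836 CPM in the E13.5 control mast cells, and 7927 and 3944 CPM in the E14.5 and E13.5 LOF mast cells. Every E14.5 library stood above every E13.5 library. The log2 fold change was 1.60 ± 0.29 (SE; edgeR adjusted p = 0.028), and within the replicate 2 pair alone the log2 ratio was 1.84. The call was lost without E13.5 control replicate 1 (adjusted p = 0.158) and without replicate 2 (0.358), where the lone E13.5 library was assumed to vary like the others. Tpsab1, a tryptase known as mast cell protease 7, went the other way, with 118 and 138 CPM in the E14.5 control and 387 and 632 CPM in the E13.5 control mast cells. Its log2 fold change was -1.99 ± 0.33 (edgeR adjusted p = 0.0178), the log2 ratio within the replicate 2 pair was -2.19, and the LOF libraries held 113 CPM at E14.5 and 437 at E13.5. In the E13.5 controls 40.4% and 22.4% of its UMIs lay in 1 mast cell, and after every cell was thinned to 3000 UMIs a Tpsab1 UMI was found in 22.8% and 16.5% of the E14.5 control and 21.9% and 27.3% of the E13.5 control mast cells (44.6% and 26.5% against 50% and 36.4% without thinning). Without E13.5 control replicate 2 the call was lost (log2 fold change -1.50, adjusted p = 0.162). The tryptases Tpsb2 and Tpsab1 are paralogs: over the last 300 bases the annotated transcripts Tpsb2-201 and Tpsab1-202 were 76.3% identical, with a longest shared run of 23 bases, so their counts are uncertain where reads were shared. Tpsb2 itself was 2381 and 2398 CPM in the E14.5 and 1178 and 1101 CPM in the E13.5 control mast cells and did not pass (log2 fold change 1.08 ± 0.28, adjusted p = 0.157; 0.0462 by DESeq2, which called it). Gzmb, granzyme B, was 68.9 and 77.5 CPM in the E14.5 and 227 and 139.8 CPM in the E13.5 control mast cells and did not pass either (adjusted p = 0.124). In the E13.5 controls 1 mast cell alone held 86 and 32 of its UMIs. Cpa3 was not tested as a result, since it chose the cells.

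Of the granule matrix and amine genes, 1 of 13 tested rose, 9 had a log2 fold change above 0 and the median was 0.63, beside 0.0177 over all genes tested. The gene that rose was Serpinb1a, an intracellular inhibitor of granule serine proteases. It stood at 453 and 531 CPM in the E14.5 control mast cells, against 49.4 and 86.3 CPM in the E13.5 control mast cells. The LOF mast cells held 559 CPM at E14.5 and 107 at E13.5, so that every E14.5 library stood above every E13.5 library. Its log2 fold change of 2.86 ± 0.35 (edgeR adjusted p = 0.000871) kept its call in every alternative run, and the log2 ratio within the replicate 2 pair was 2.61. Hdc, histidine decarboxylase, was 1363 and 2333 CPM in the E14.5 and 590.0 and 1358 CPM in the E13.5 control mast cells, and the nearest values of the 2 stages nearly met (adjusted p = 0.797). Slc18a2, which loads amines into granules, was 97.2 and 60.4 CPM at E14.5 and 54.4 and 43.1 CPM at E13.5. Ndst2, which sulfates the granule heparin, was 141 and 149 CPM at E14.5 and 67.6 and 88.0 CPM at E13.5. Both had no overlap between the control stages and neither passed. Genes whose control values did not overlap made up 15.1% (higher) and 19.8% (lower) of all genes tested.

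A lipid flippase and an inhibitor of NF-kappa-B were also among the 8 genes that were higher at E14.5. Atp8b5, a phospholipid flippase, was found in 33 and 35 mast cells of the E14.5 controls, at 56.6 and 47.9 CPM, against 0 and 1.73 CPM in the E13.5 controls, where both libraries together held 1 UMI. It was also 50.8 CPM in the E14.5 LOF and 0 in the E13.5 LOF mast cells. The ratio of summed UMIs was 61.2, with a counting interval of 10.8 to 2436 (edgeR adjusted p = 0.00131). Nfkbia, the inhibitor of NF-kappa-B, was 286 and 305 CPM in the E14.5 and 117 and 105 CPM in the E13.5 control mast cells, a log2 fold change of 1.42 ± 0.29 (adjusted p = 0.046). Its call was lost without either E13.5 control library (adjusted p = 0.687 without replicate 1 and 0.442 without replicate 2). Tnfaip3, another NF-kappa-B target and inhibitor, was 160.0 and 69.6 CPM at E14.5 and 18.1 and 29.3 CPM at E13.5 and missed the threshold (adjusted p = 0.0515), but it passed by DESeq2 (0.0462), with DESeq2 size factors (0.0494) and with at least 20 Cpa3 UMIs per mast cell (0.0453).

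Osm was the 1 gene of the 8 cytokine and chemokine genes tested that passed. Oncostatin M, its product, is a cytokine of the interleukin-6 family. Its level was 105 and 108 CPM in the E14.5 control and 24.7 and 27.6 CPM in the E13.5 control mast cells, with 78.6 CPM in the E14.5 LOF and 31.9 in the E13.5 LOF mast cells. The log2 fold change was 2.03 ± 0.37 (edgeR adjusted p = 0.028); within the replicate 2 pair the log2 ratio was 1.93. It did not pass without E13.5 control replicate 1 (0.324) or replicate 2 (0.0755). Il13, a type 2 cytokine, was 168 and 209 CPM in the E14.5 and 52.7 and 114 CPM in the E13.5 control mast cells (adjusted p = 0.381). Il4 was 53.0 and 61.7 CPM at E14.5 and 56.0 and 43.1 CPM at E13.5, with overlap. Tnf was 36.2 and 68.3 CPM at E14.5 and 9.89 and 27.6 CPM at E13.5 and did not pass. Tgfb1 was 166 and 225 CPM at E14.5 and 203 and 214 CPM at E13.5, and the stages overlapped. Il4, Il13 and Osm were detected in each of the 6 libraries, while no UMI of Il5 was seen in any.

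**Figure D3:**
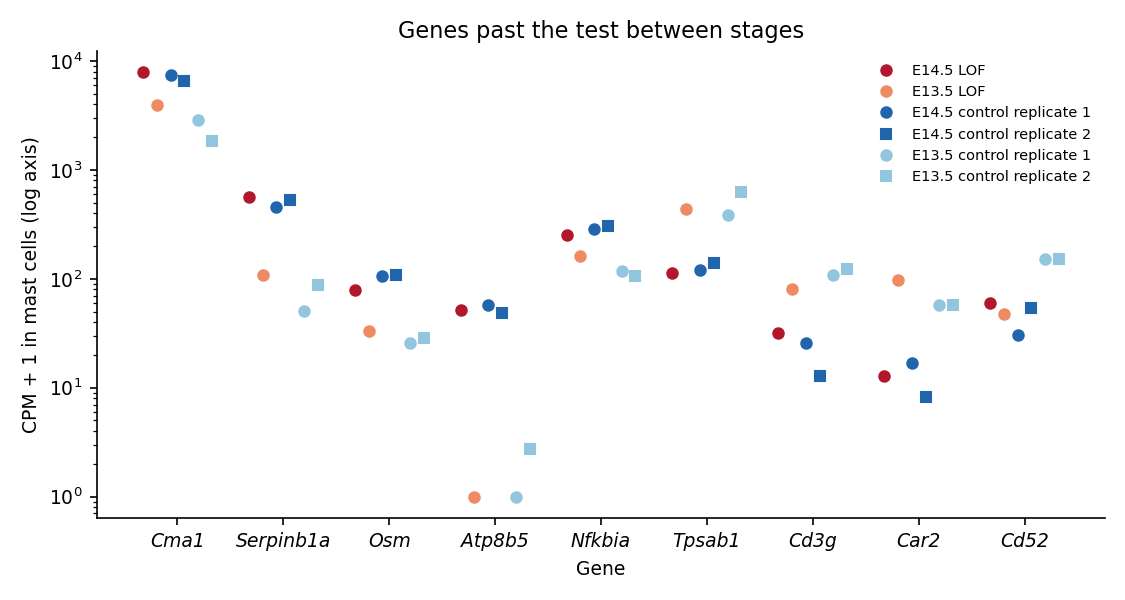
Levels in mast cells of genes named for the stage comparison, in CPM plus 1 on a log axis, 1 point per library (LOF left of control, E14.5 left of E13.5 within each). Cma1, Serpinb1a, Osm, Atp8b5 and Nfkbia stood higher in both E14.5 controls than in both E13.5 controls, and Tpsab1, Cd3g, Car2 and Cd52 stood lower.

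Besides Tpsab1, the genes that were lower at E14.5 were Cd3g, Car2, Cd52, Apoe, Lsp1, Fgl2 and Cd7. Cd3g, a chain of the T cell receptor complex, was 24.7 and 11.8 CPM in the E14.5 control and 107 and 123 CPM in the E13.5 control mast cells. Its log2 fold change was -2.68 ± 0.39 (edgeR adjusted p = 0.00327) and the log2 ratio within the replicate 2 pair -3.27. The LOF libraries held 30.7 CPM at E14.5 and 79.7 at E13.5, and of the 3 lymphoid list genes tested Cd3g was the 1 that passed, with 1 gene above 0. Car2, carbonic anhydrase 2, was 15.9 and 7.22 CPM at E14.5 and 56.0 and 57.0 CPM at E13.5 (-2.32 ± 0.46, adjusted p = 0.0416). Cd52, a glycoprotein on the surface of leukocytes, was 29.2 and 53.2 CPM at E14.5 and 152 and 152 CPM at E13.5 (-1.84 ± 0.36, adjusted p = 0.0416), but the E14.5 LOF library held 58.6 CPM and the E13.5 LOF library 46.8. Apoe, an apolipoprotein that macrophages express strongly, was 20.3 and 46.6 CPM at E14.5 and 155 and 166 CPM at E13.5 (adjusted p = 0.0384), against 1968 to 5087 CPM in macrophages. Lsp1, an actin-binding protein of leukocytes, was 1.77 and 1.31 CPM at E14.5 and 57.7 and 12.1 CPM at E13.5, but 60% and 71.4% of its UMIs in the E13.5 controls lay in 1 cell. Fgl2, a fibrinogen-like protein, was 6.19 and 9.19 CPM at E14.5 and 62.6 and 36.2 CPM at E13.5, and Cd7, a receptor of T and natural killer cells, was 4.42 and 5.91 CPM at E14.5 and 28.0 and 39.7 CPM at E13.5. Leaving out E13.5 control replicate 1 ended the calls of Cd52 and Fgl2 (adjusted p = 0.052 and 0.167), and leaving out E13.5 control replicate 2 those of Car2, Cd52 and Cd7 (0.0755, 0.0885 and 0.253). Values for the progenitor marker Cd34 were 55.7 and 40.7 CPM at E14.5 and 135 and 139.8 CPM at E13.5 (adjusted p = 0.0573). Cd34 passed without mast cells that held markers of another class (log2 fold change -2.04, adjusted p = 0.0215), without cells called doublets (0.0421), with at least 20 Cpa3 UMIs (0.0453) and with all 6 libraries and genotype as a covariate (0.0372). Values for Meis1, a transcription factor of blood progenitors, were 23.9 and 22.3 CPM at E14.5 and 87.3 and 53.5 CPM at E13.5 (adjusted p = 0.124).

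Of the genes called higher, Ccl21a had its UMIs in few cells, Krtdap was high in other cells, and A530099J19Rik is a transcript of no known role here. Ccl21a, a chemokine of lymphatic vessels, was 89.3 and 57.8 CPM at E14.5 and 1.65 and 3.45 CPM at E13.5 (189 and 3 UMIs, ratio 28.2, counting interval 9.49 to 138). It came from 2 mast cells in each E14.5 control library, and 68.3% and 98.9% of its UMIs lay in 1 of them. Krtdap, a keratinocyte gene, was 27.4 and 68.3 CPM in the E14.5 control and 3.30 and 0 CPM in the E13.5 control mast cells, and its level in keratinocytes was 535 and 591 CPM at E14.5 and 72.4 and 11.2 CPM at E13.5. Fibroblasts, which should lack it, held 57.5 and 102 CPM at E14.5 and 1.85 and 0.447 CPM at E13.5. A530099J19Rik was 58.3 and 20.4 CPM at E14.5 and 3.30 and 1.73 CPM at E13.5 (ratio of summed UMIs 14.5, counting interval 4.80 to 71.3), and its call was lost without E14.5 control replicate 1 (adjusted p = 0.649). What part other cells or free RNA had in these values was not tested.

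Which cells were counted as mast cells also moved the stage calls. With at least 5 in place of 10 Cpa3 UMIs, 8 of the 16 calls were lost, those of Osm (log2 fold change 1.46, adjusted p = 0.261), Apoe (0.385), Cd7 (0.0938), Cd52 (0.0866), Krtdap (0.0554), Nfkbia, Car2 and A530099J19Rik (0.0519 each). With at least 20, Apoe (0.106) and Cd7 (0.0737) were lost. Without mast cells that held markers of another class the calls of Cd52 (log2 fold change -1.27, adjusted p = 0.435), Fgl2 (0.148) and A530099J19Rik (0.0896) were lost, and without cells called doublets those of Cd52 (0.0521) and Cd7 (0.0595). Ccl21a and Lsp1 were not among the genes tested in either set. DESeq2 did not call Fgl2 (0.0877), Cd7 (0.283), Car2 (0.117) or A530099J19Rik (0.155). With all 6 libraries and genotype as a covariate, Apoe and Lsp1 (0.228 each), Fgl2 (0.170), Cd7 (0.489), Cd52 (0.279), Nfkbia (0.0562) and A530099J19Rik (0.0555) did not pass.

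No surface receptor gene passed the stage test, with 9 of 12 tested above 0 and a median log2 fold change of 0.67. Kit was 416 and 257 CPM in the E14.5 and 201 and 162 CPM in the E13.5 control mast cells (0.88 ± 0.29, adjusted p = 0.365). Csf2rb, the common beta chain of the IL-3, IL-5 and GM-CSF receptors, was 213 and 261 CPM at E14.5 and 112 and 114 CPM at E13.5, and Il1rl1 was 246 and 167 CPM at E14.5 and 110.4 and 124 CPM at E13.5. In each of these 3 genes both E14.5 controls stood above both E13.5 controls, an order found in 15.1% of all genes tested, with the reverse order in 19.8%. Il9r, the IL-9 receptor, lay the other way, with 2.65 and 5.91 CPM at E14.5 and 21.4 and 20.7 CPM at E13.5. Of 24 genes of Fc receptor and Kit signalling tested none passed, and 13 lay above 0. The largest difference among them by unadjusted p was Socs2, a feedback inhibitor of cytokine receptors, at 112 and 112 CPM at E14.5 and 34.6 and 50.1 CPM at E13.5 (adjusted p = 0.13). The kinases Lyn, Fyn, Syk and Btk were present at 15.9 to 39.8, 22.3 to 56.6, 5.91 to 18.6 and 25.9 to 73.6 CPM over the 6 libraries, a spread that crossed the stages in Lyn, Syk and Btk.

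Transcription factor genes showed no common direction, with 10 of 19 tested above 0, a median of 0.10 and none called. Gata2 was 763 and 585 CPM in the E14.5 and E13.5 LOF, 811 and 525 in the E14.5 control and 631 and 488 in the E13.5 control mast cells. Its partner Gata1 was 48.5 to 76.5 CPM across the libraries, Mitf 60.6 to 125 CPM, Ikzf1 143 to 209.7 CPM and Myb, a factor of immature blood cells, 67.0 to 131 CPM. Erg, an ETS factor, differed more, with 61.9 and 30.9 CPM at E14.5 and 13.2 and 3.45 CPM at E13.5 (adjusted p = 0.104), and 75.8 CPM in the E14.5 LOF and 27.6 in the E13.5 LOF mast cells. Cell cycle genes were expressed at both stages: all 20 were tested, none passed, 5 lay above 0 and the median was -0.11. Birc5, needed for cell division, was 224 and 282 CPM at E14.5 and 328 and 228 CPM at E13.5, and Pcna, the clamp of DNA replication, was 58.3 and 67.0 CPM at E14.5 and 82.4 and 74.2 CPM at E13.5.

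All 11 immediate early and stress genes tested, of 14 listed, had log2 fold changes above 0. Their median was 0.91, beside 0.0177 over all genes tested. By edgeR's test 9 of the 11 had an unadjusted p under 0.05, beside 473 of all 6919 genes tested. None of the 11 passed after adjustment in that fit. Nr4a1 passed without cells called doublets (adjusted p = 0.0497) and Jun with all 6 libraries and genotype as a covariate (0.0367). Fos was 732 and 657 CPM in the E14.5 and 280.2 and 369 CPM in the E13.5 control mast cells (adjusted p = 0.178), and Jun was 456 and 239.7 CPM at E14.5 and 163 and 112 CPM at E13.5 (adjusted p = 0.115). Nr4a1, an immediate early nuclear receptor, was 247 and 232 CPM at E14.5 and 82.4 and 100.1 CPM at E13.5 (adjusted p = 0.0573). In macrophages of the same libraries Fos was 1724 and 1673 CPM at E14.5 and 749 and 955 CPM at E13.5, and Jun was 610.4 and 375 CPM at E14.5 and 320.0 and 199 CPM at E13.5.

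In part of the mast cells no chymase UMI was found, and that part was larger in each E13.5 library than in each E14.5 library. Cells were first thinned to 3000 UMIs each, which left out 3 mast cells of the E14.5 LOF library and 4 of E14.5 control replicate 2 that held fewer. After thinning, 18 of 198 cells (9.09%) in the E14.5 LOF library and 16 of 57 (28.1%) in the E13.5 LOF library held no Cma1 UMI. In the E14.5 controls it was 10 of 92 (10.9%) and 15 of 109 (13.8%), against 10 of 32 (31.2%) and 21 of 44 (47.7%) in the E13.5 controls. Without thinning, a Cma1 UMI was found in 92.5% and 87.7% of the mast cells in the E14.5 and E13.5 LOF, 98.9% and 92.9% in the E14.5 control and 84.4% and 68.2% in the E13.5 control libraries. Of the thinned fibroblasts, which should lack the gene, 0.214% to 2.78% held one. The split itself used Cma1, so what follows is a description. For the cells below, without or with Cma1 refers to the thinned counts and CPM to all UMIs of the cells. Cells without Cma1 are thus cells with little or none of it. Before thinning, 5 of the 10 and 7 of the 21 such cells in the E13.5 controls held a Cma1 UMI. The Cma1 level of the cells without it after thinning was 237 and 128 CPM in the E14.5 and 82.5 and 53.1 CPM in the E13.5 controls. Cells without Cma1 also held little Tpsb2: 75.4 and 141 CPM in the E14.5 and E13.5 LOF libraries, 174 and 77.0 in the E14.5 control and 115 and 35.4 in the E13.5 control libraries. Cells with Cma1 held 3295 and 2633 CPM of it in the E14.5 and E13.5 LOF, 2876 and 2718 in the E14.5 control and 1633 and 2116 in the E13.5 control libraries. Serpinb1a was likewise lower without Cma1 in all 6 libraries, for example 5.50 and 35.4 CPM without and 68.2 and 135 CPM with Cma1 in the E13.5 controls. Gata2 differed less between the 2 kinds of cells. In controls it was 633 and 503 CPM without and 850.4 and 526 CPM with Cma1 at E14.5, and 638 and 517 without and 628 and 462 with Cma1 at E13.5.

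Ifitm1, an interferon-induced membrane protein gene, and Gzmb stood higher in the cells without Cma1 in 6 and 5 of the 6 libraries. Without Cma1, Ifitm1 was 1714 and 141 CPM in the E14.5 and E13.5 LOF, 179 and 1134 in the E14.5 control and 2211 and 2077 in the E13.5 control libraries. With Cma1 it was 12.6 and 90.4 CPM in the E14.5 and E13.5 LOF, 21.6 and 91.2 in the E14.5 control and 98.8 and 516 in the E13.5 control libraries. Gzmb was 553 and 43.3 CPM without Cma1 in the E14.5 and E13.5 LOF, 246 and 405 in the E14.5 and 649 and 219 in the E13.5 controls. With Cma1 it was 13.9 and 46.7 CPM in the E14.5 and E13.5 LOF, 29.2 and 29.6 in the E14.5 and 47.1 and 64.0 in the E13.5 controls, so that the E13.5 LOF library was the exception. Few cells carried these values: of the Ifitm1 UMIs in cells without Cma1, 100% and 74.2% in the E14.5 and 35.6% and 29.3% in the E13.5 controls lay in 1 cell. Of the Gzmb UMIs in such cells of the E13.5 controls, 72.9% and 51.6% lay in 1 cell. Nkg7, of the lymphoid list, was higher without Cma1 in all 6 libraries. In the E14.5 controls it was 96.6 and 174 CPM without and 56.3 and 53.2 with Cma1. The E13.5 controls held 187 and 184 CPM of it without and 63.5 and 87.6 with Cma1. Cd3g was higher without Cma1 in both LOF libraries and in the E13.5 controls (231 and 149 CPM without, 54.1 and 97.7 with). It was lower without Cma1 in the E14.5 controls (9.66 and 10.3 CPM without, 28.1 and 12.2 with). When only mast cells with a Cma1 UMI were compared between the stages, 6 genes passed, 5 of them among the 16, and Cma1 itself had a log2 fold change of 1.14 (adjusted p = 0.0796). Among the calls lost were those of Cd3g (-1.93, adjusted p = 0.164), Apoe (-0.98, 0.855), Cd52 (-1.52, 0.713) and Osm (1.80, 0.086).

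**Figure D4:**
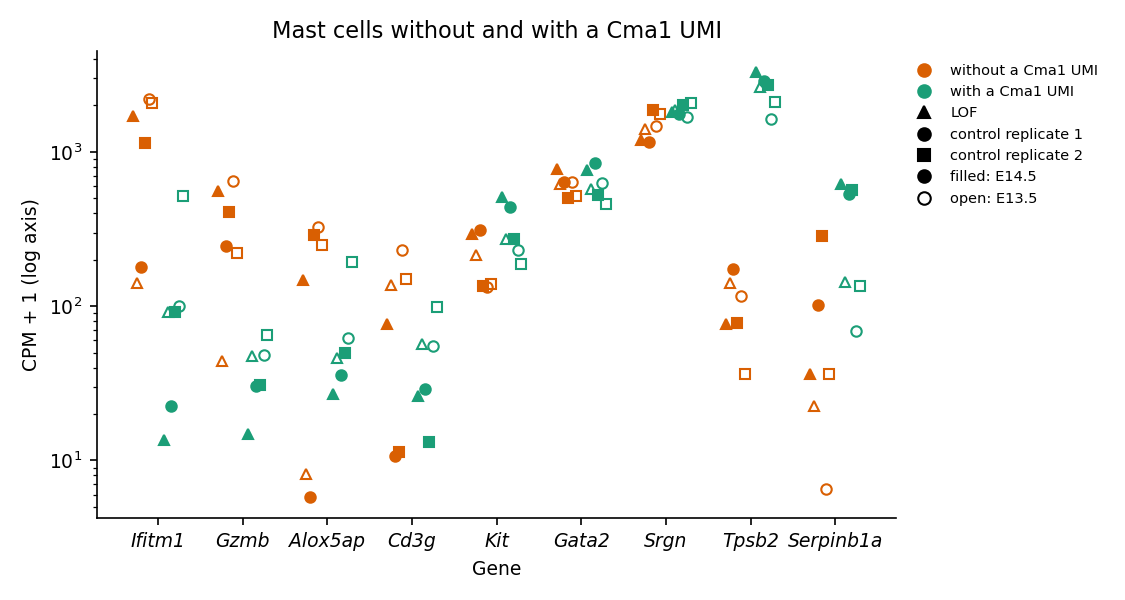
Levels in mast cells without (orange, left) and with (green, right) a Cma1 UMI after thinning to 3000 UMIs, in CPM plus 1 on a log axis, 1 point per library (triangles LOF, circles control replicate 1, squares control replicate 2; filled E14.5, open E13.5). Tpsb2 was at most 174 CPM in cells without Cma1 and at least 1633 CPM in cells with it, while Gata2 and Srgn overlapped.

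Several mast cell genes differed more between the replicates of a stage than between the stages. Prss34 was 987 and 1020.2 CPM in replicate 1 of E14.5 and E13.5, 280.4 and 266 CPM in replicate 2, and 1146 and 923 CPM in the E14.5 and E13.5 LOF libraries. The chemokine receptor gene Ccr2 was likewise 225 and 213 CPM in replicate 1 of E14.5 and E13.5, and 23.0 and 43.1 CPM in replicate 2. Tpsg1, a membrane-bound tryptase, had the opposite order, with 107 and 104 CPM in replicate 1 and 768 and 324 CPM in replicate 2. Mcpt8, a protease gene of basophils, was 156 CPM in E14.5 control replicate 2 and at most 22.9 CPM in the other 5 libraries. Other genes followed the pair of E14.5 control replicate 1 and the E14.5 LOF library: Mki67, a proliferation marker, was 456 CPM in the E14.5 LOF library and 477 in E14.5 control replicate 1, and at most 147 in the other 4. The integrin gene Itga4 was 641 and 529 CPM in the same pair and at most 214 elsewhere. None of these genes passed the stage or the genotype test. The cause of these differences was not tested.

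**Figure D5:**
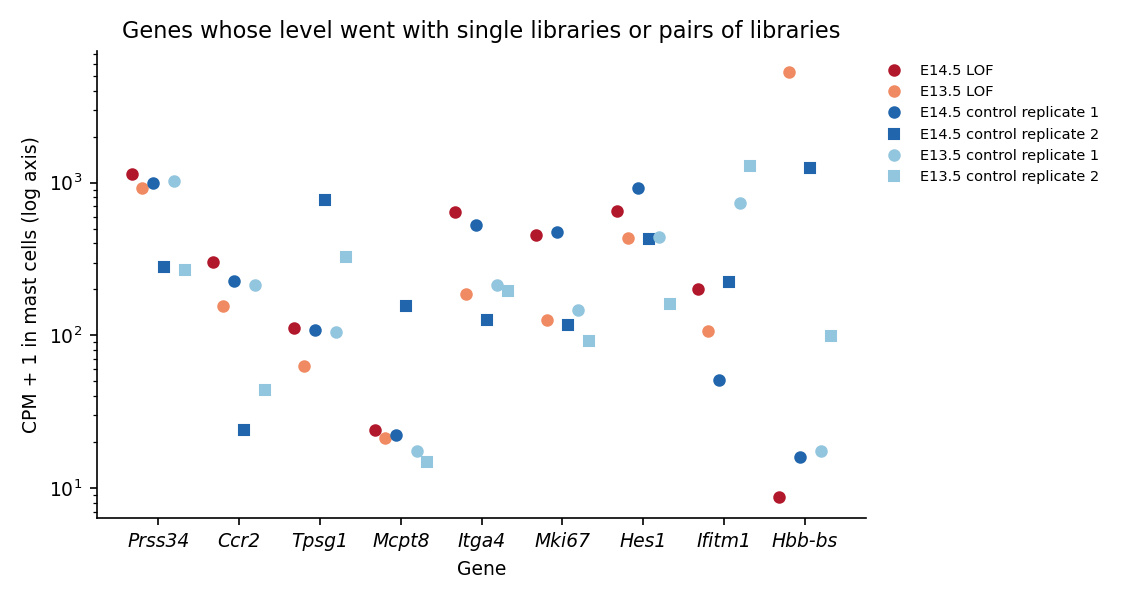
Levels in mast cells, in CPM plus 1 on a log axis, of genes whose level went with single libraries or pairs of libraries; 1 point per library, with circles for replicate 1 and LOF libraries and squares for replicate 2 controls. Prss34 was 280.4 and 266 CPM in the replicate 2 controls of E14.5 and E13.5 and at least 923 CPM in the other 4 libraries.

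Between LOF and control mast cells, 1 gene differed past the test. With 1 LOF library per stage, both stages were joined in 1 edgeR fit with stage as a covariate over 7917 genes. That gene (0.0126%) was Ccl21a, with no UMI in either LOF library (adjusted p = 0.00147; 1 without the E14.5 LOF library), and its UMIs in controls came from the few cells described above. No gene was called higher, 161 genes had an unadjusted p under 0.05, and DESeq2 called 1 gene. Without the cells called doublets no gene passed edgeR's test (166 at an unadjusted p under 0.05). No gene of the lists for mast cell function passed. Cma1 was 7927 CPM in the E14.5 LOF library and 3944 CPM in the E13.5 LOF library, above both controls of each stage (7434 and 6559 CPM at E14.5 and 2856 and 1836 CPM at E13.5), with a log2 fold change of 0.44 ± 0.22 (adjusted p = 1). Kit was 490.2 and 255 CPM in the E14.5 and E13.5 LOF libraries, against 416 and 257 in the E14.5 and 201 and 162 in the E13.5 controls (0.48 ± 0.21, adjusted p = 1). Tpsb2 was 2963 and 1899 CPM in the E14.5 and E13.5 LOF, against 2381 and 2398 in the E14.5 and 1178 and 1101 in the E13.5 controls (0.48 ± 0.21, adjusted p = 1). A LOF library stood above both controls of its stage at both stages for 11.3% of all genes tested and below them for 8.06%.

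Below the threshold, the genes with the smallest unadjusted p were given as values. Mtss1, an actin and membrane scaffold, was 115 and 22.3 CPM in the E14.5 and E13.5 LOF mast cells, against 53.9 and 31.5 in the E14.5 and 9.89 and 6.90 in the E13.5 controls (1.36 ± 0.31, adjusted p = 0.738). Chpt1, an enzyme of phosphatidylcholine synthesis, was 89.8 and 42.5 CPM in the E14.5 and E13.5 LOF, against 64.5 and 28.9 in the E14.5 and 19.8 and 6.90 in the E13.5 controls (1.18 ± 0.36, adjusted p = 1). Phlda1 was 36.8 and 20.2 CPM in the LOF libraries of E14.5 and E13.5, against 73.4 and 84.7 in the E14.5 and 140.1 and 32.8 in the E13.5 controls (-1.56 ± 0.48, adjusted p = 1). None of the 3 passed. The ligand of Kit, Kitl, was 256 and 32.0 CPM in the fibroblasts of the E14.5 and E13.5 LOF libraries, 241 and 86.8 in those of the E14.5 and 26.4 and 21.0 in those of the E13.5 controls, and 0 to 5.30 CPM in mast cells. Fibroblast Kitl stood higher in both E14.5 controls than in both E13.5 controls, its 2 highest values lay in the pair of E14.5 control replicate 1 and the E14.5 LOF library, and it was not tested.

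Changes in mast cells were compared with those in macrophages of the same libraries, as the difference of the log2 fold changes with the library as a block. The stage effect differed between mast cells and macrophages in 8 of 8849 genes (0.0904%), 1 with a larger (0.0113%) and 7 with a smaller (0.0791%) log2 fold change in mast cells. Of the genes called between the control stages, only Cd52 and Lsp1 were among these 8. Cma1, Serpinb1a, Osm, Atp8b5, Nfkbia, Tpsab1 and Cd3g were not among them. For those genes no difference from macrophages was called, which does not show that the classes changed alike. Genes that macrophages hardly express leave this test little to compare. Cma1 and Tpsab1, for example, stood 418- and 169-fold higher in mast cells than in all other kept cells. For Cd52 the difference was -2.40 ± 0.27 (edgeR adjusted p = 0.000858): macrophages held 176 and 184 CPM at E14.5 and 130.5 and 110.0 at E13.5, while mast cells were lower at E14.5. For Alox5ap, which presents substrate to 5-lipoxygenase for leukotriene synthesis, mast cells held 29.2 and 79.5 CPM at E14.5 and 140.1 and 219 at E13.5, while macrophages held 190.0 and 303 CPM at E14.5 and 193 and 281 CPM at E13.5 (-1.75 ± 0.24, adjusted p = 0.00224). Mast cells without Cma1 after thinning held 4.83 and 287 CPM of it at E14.5 and 324 and 248 at E13.5. Those with Cma1 held 34.6 and 48.6 CPM at E14.5 and 61.2 and 192 at E13.5. The comparison with macrophages was not run on mast cells with Cma1 only. Ftl1, the ferritin light chain, was the gene with the larger log2 fold change in mast cells (0.94 ± 0.12, adjusted p = 0.00216), at 5091 and 2913 CPM at E14.5 and 3294 and 3165 at E13.5, against 13898 and 7240.3 CPM at E14.5 and 14762 and 16600.2 CPM at E13.5 in macrophages. The genotype effect differed in 7 of 9317 genes (0.0751%), 5 with a larger (0.0537%) and 2 with a smaller (0.0215%) log2 fold change in mast cells, among them the immediate early genes Jun (0.87 ± 0.14, adjusted p = 0.0205) and Fos (0.62 ± 0.11, adjusted p = 0.0438). Jun was 539 and 208 CPM in the E14.5 and E13.5 LOF mast cells, against 456 and 239.7 in the E14.5 and 163 and 112 in the E13.5 controls. In macrophages it was 489 and 185 CPM in the E14.5 and E13.5 LOF, against 610.4 and 375 in the E14.5 and 320.0 and 199 in the E13.5 control libraries. Leaving out the E13.5 LOF or the E14.5 LOF library ended the call of Jun (adjusted p = 0.497 and 0.155) and of Fos (0.456 and 1).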

How the data were processed

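Whole-number UMI counts per gene and cell were used as deposited by the authors, in 6 libraries of 28000 genes. Per the submitters' processing notes, Cell Ranger and Seurat were used with mm10 (GRCm38); versions are not given in the sources used here. The members and gene lists were chosen with earlier results of these data known. UMIs of mast cells were summed per library and tested with edgeR 4.0.16 (TMM, filterByExpr, robust quasi-likelihood fit, R 4.3.3), with Benjamini-Hochberg adjustment over all genes tested, and with DESeq2 1.42.0 as an alternative. Stage was tested in 4 control libraries, genotype in 6 with stage as a covariate, and the difference from macrophages with the library as a block. Replicates of a stage differed beyond counting noise (chi-square per degree of freedom 5.04 at E13.5 and 12.5 at E14.5). Macrophages held at least 10 C1q UMIs, fibroblasts at least 30 collagen UMIs and keratinocytes at least 10 keratin UMIs, each with at most 1 Cpa3 UMI. Doublets were scored with scanpy 1.11.5, and the highest scores were called at an assumed rate of 0.8% per 1000 kept cells (4.68% to 7.14% of cells). They were kept, except in an alternative. Named genes were the mast cell markers and, per comparison, up to 10 rises and 10 falls with the largest change among called genes whose groups did not overlap, without predicted, ribosomal and haemoglobin genes and genes far higher in other classes, and otherwise the smallest unadjusted p as values. Further called genes, list genes and genes that followed single libraries were named after their values were seen. Alternatives were other scalings, no filter, other Cpa3 limits, cells with other markers or doublet calls left out, each library left out, and a replicate block. Intervals are 95% exact binomial.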

Additional observations from a re-analysis of the deposited data

Results flagged for a closer look

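The stage effect (E14.5 control over E13.5 control) differed between mast cells and macrophages of the same libraries in 8 genes, by edgeR's test of the interaction with Benjamini-Hochberg adjustment. The differences in log2 fold change, mast cells minus macrophages, were -2.40 ± 0.27 for Cd52, -1.47 ± 0.17 for Ifitm2, -2.03 ± 0.27 for Lgals3, -1.75 ± 0.24 for Alox5ap, -4.47 ± 0.61 for Lsp1, -3.05 ± 0.50 for Rgcc, -2.65 ± 0.46 for Dusp2 and 0.94 ± 0.12 for Ftl1 (SE), with adjusted p between 0.000858 and 0.0288. Lgals3, a galectin of macrophages, was 42.4 and 53.8 CPM in the E14.5 and 82.4 and 98.4 CPM in the E13.5 control mast cells, and macrophages held 104 and 127 CPM at E14.5 and 41.8 and 61.5 CPM at E13.5. Ifitm2, an interferon-induced membrane protein gene, was 99.0 and 184 CPM at E14.5 and 323 and 340.0 CPM at E13.5 in mast cells and 401 and 640.2 CPM at E14.5 and 443 and 421 CPM at E13.5 in macrophages. Rgcc, a regulator of the cell cycle, was 102 and 85.4 CPM at E14.5 and 82.4 and 116 CPM at E13.5 in mast cells, and its difference was -0.56 (adjusted p = 0.873) without the cells called doublets. The phosphatase gene Dusp2 was 19.4 and 15.1 CPM at E14.5 and 44.5 and 6.90 CPM at E13.5 in mast cells and lost its call without E13.5 control replicate 1 (adjusted p = 0.478), with at least 20 Cpa3 UMIs per mast cell (0.0604) and by DESeq2 (0.711). The difference of Lsp1 was -2.69 (0.170) without mast cells that held markers of another class and did not pass without doublet calls (0.0789) either, and those of Cd52 (0.082) and Alox5ap (0.094) did not pass with at least 5 Cpa3 UMIs per mast cell.

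The genotype effect (LOF over control) differed between the same classes in 7 genes. The differences were -1.60 ± 0.24 for Sepp1, 0.87 ± 0.14 for Jun, 0.66 ± 0.11 for Ier2, 0.62 ± 0.11 for Fos, 2.96 ± 0.54 for Dtx3l, 8.61 ± 1.52 for Ttn and -3.60 ± 0.67 for Cited4, with adjusted p between 0.0172 and 0.0438. Ttn, the muscle protein titin, had UMIs in 6 mast cells of the E14.5 LOF library, 46.4% of them in 1 cell. Cited4, a transcriptional coactivator gene, was 210.3 and 223 CPM in the E14.5 and E13.5 LOF, 191 and 214 in the E14.5 and 142 and 250.3 in the E13.5 control mast cells. Its macrophage levels were 8.08 and 5.17 CPM in the E14.5 and E13.5 LOF, 0 and 0.912 in the E14.5 and 0.643 and 0 in the E13.5 control libraries. Sepp1, selenoprotein P, was 6.69 and 7.44 CPM in the E14.5 and E13.5 LOF, 17.7 and 32.2 in the E14.5 and 34.6 and 20.7 in the E13.5 control mast cells, against 1018 to 1445 CPM in macrophages. Its difference was -0.65 (adjusted p = 1) without mast cells that held markers of another class and -0.72 (adjusted p = 1) without cells called doublets. For Cited4 those differences were 0.40 and -0.43 (adjusted p = 1 each). Dtx3l did not pass in either set (0.0854 and 0.0689), Ier2 not in the first (0.0683) and Fos not in the second (0.0689), and Ttn was not tested in them. Without the E14.5 LOF library Sepp1, Jun, Ier2, Fos, Dtx3l and Cited4 did not pass, and Ttn was not among the genes tested. Why the classes differed was not tested.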

How the results depend on the processing

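The 16 stage calls of edgeR became 123 without a filter on low counts, 8 with at least 5 in place of 10 Cpa3 UMIs per mast cell and 6 with only mast cells that held Cma1 (chosen after seeing the data). Leaving out 1 control library gave 21 to 508 calls: 96 (replicate 1 left out) and 508 (replicate 2) at E14.5, and 21 (replicate 1) and 38 (replicate 2) at E13.5, where the lone library of a stage was assumed to vary like the others. With the replicate block (replicates 1 and 2 as pairs) the stage calls numbered 97, among them all 16, and further genes passed that had not passed without it, among them Tpsb2, Hdc, Kit, Gzmb, Il13, Socs2, Erg, Fos, Jun, Nr4a1, Tnfaip3, Cd34, Meis1, Maob, Ephx2 and Ifitm2, with adjusted p from 3.76e-05 (Tpsb2) to 0.0373 (Kit). The labels tie the replicate numbers to nothing shared. Over 6919 genes the difference of replicate 1 minus replicate 2 at E14.5 correlated with that at E13.5 (Pearson r = 0.241, a description across genes), and 2 pairs are too few to settle pairing. With the block the genotype comparison gave 1 call and the difference of the stage effect from macrophages 109.

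The 1 genotype call became 14 without a filter, 2 with at least 20 Cpa3 UMIs, 2 with the library pair as a covariate and 0 without mast cells that held markers of another class (160 at an unadjusted p under 0.05) or without cells called doublets (166). DESeq2, run on the unchanged cells, called 1. Leaving out 1 library gave 0 to 5 calls, with 0 (146 at an unadjusted p under 0.05) when it was E14.5 control replicate 2 and 5 when it was the E13.5 LOF library. Ccl21a was not among the calls either when the E14.5 LOF library or the first replicate of the E14.5 controls was left out. The 8 differences of the stage effect from macrophages became 21 with DESeq2 size factors, 118 without a filter, 44 without mast cells that held markers of another class, 56 without doublet calls and 62 to 91 when 1 library was left out. The 7 differences of the genotype effect became 2 with DESeq2, 22 without a filter, 0 with at least 5 Cpa3 UMIs (394 at an unadjusted p under 0.05), 3 without doublet calls and 3 to 13 when 1 library was left out. The difference of Cited4 turned to 0.40 (adjusted p = 1) without mast cells that held markers of another class. Thinning each cell to 3000 UMIs lowered the share of mast cells to 0.589% in the E13.5 LOF library, 1.50% in E14.5 control replicate 2 and 0.301% and 0.402% in the E13.5 controls. The other 26 share values stayed within their counting intervals. Of the stage values of single genes, 381 stayed the same, 48 lost and 74 gained a call, and none turned round. The 381 include the log2 ratios within the replicate 2 pair, which had no test and were compared by direction only. Serpinb1a and Atp8b5 passed in each alternative that gave a test. The causes were not tested. Depth limits genes near 5 CPM, the level of 3 counts in the E13.5 control mast cells.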

Other observations

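Levels of further genes are given here as values. Cyp11a1, the enzyme that begins steroid synthesis from cholesterol, was 244 and 182 CPM in the E14.5 and E13.5 LOF, 151 and 255 in the E14.5 and 122 and 65.6 in the E13.5 control mast cells. The mean of its log2 ratios to all other kept cells over the libraries was a 93.0-fold difference. Cx3cr1, the fractalkine receptor gene, was 51.2 to 165 CPM in mast cells over the 6 libraries, against 225 to 545 CPM in macrophages. Of the 12 fetal program genes, 10 were tested between the control stages and none passed, with 5 above 0. Among them Hmga2, a chromatin protein of fetal cells, was 46.8 and 51.2 CPM in the E14.5 and 65.9 and 98.4 CPM in the E13.5 control mast cells, and Igf2bp3, an RNA-binding protein of fetal cells, was 83.1 and 59.8 CPM at E14.5 and 59.3 and 41.4 CPM at E13.5. Lin28b, a regulator of fetal blood cells, was present at 8.84 to 15.5 CPM, while Lin28a had no UMI in any library. Of the 12 lipid mediator genes 5 were tested and none passed. Alox5, the 5-lipoxygenase, was 70.9 to 111 CPM over the libraries, whereas Ltc4s, the leukotriene C4 synthase, was at most 5.25 CPM and Tbxas1, the thromboxane synthase, had no UMI in any library.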
